A study of Mus musculus with 2 samples.

Results

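The genes described here are 10 genes of the elastic fibre and its microfibrils, of 31054 genes counted in the series: Eln, Fbn1, Mfap5, Emilin2, Mfap4, Ltbp2, Fbln1, Fbln2, Fbln5 and Lox. They were chosen by name, and each was found under its symbol in both count tables. The cells came from gonadal white adipose tissue (gWAT) of 18-month-old male mice of genotype p16-CreERT2/R26-LSL-tdTomato, in which the p16 gene drives a tamoxifen-inducible Cre that cuts out the stop cassette of a tdTomato reporter. Cells without CD31 and CD45 at the surface, the markers of endothelial and blood cells, were separated by tdTomato signal into Tom+ and Tom- cells, and each fraction gave 1 droplet library. The mice of both groups had the same genotype and the labels separate the groups by the sort alone, while the reporter allele of Tom+ cells has lost its stop cassette. The reporter keeps a record of p16-driven Cre at the time of tamoxifen and does not read p16 at the time of the sort. With 1 library per group no test was possible, and the number of mice behind each library is not given in the sources used here. All intervals are exact 95% intervals for counting error only, and a difference between sorted groups cannot be told apart from a difference between preparations.

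Elastic fibres give tissues their recoil. Elastin forms the core, which is laid down on a scaffold of fibrillin microfibrils, guided by fibulins and joined by crosslinks that lysyl oxidase starts. Microfibrils also hold latent TGF-β through some of the latent TGF-β binding proteins. In adipose tissue the proteins of elastic fibres and microfibrils are made mainly by the stromal progenitors that surround the adipocytes.

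RefSeq start sites (build GRCm38.p6) gave 9 windows of 250 bases upstream for 6 members, Emilin2, Fbln1, Fbln2, Fbln5, Fbn1 and Ltbp2, and 3 of these windows held no base of an annotated exon. An exon-free window of Fbln1 and one of Emilin2 are shown, since these genes lay on opposite sides of the comparison of mesothelial with stromal cells given below. Capitals mark a GC box, GGGCGG on either strand, so that CCGCCC is the box on the opposite strand.
Fbln1, chr15:85205699-85205948, + strand: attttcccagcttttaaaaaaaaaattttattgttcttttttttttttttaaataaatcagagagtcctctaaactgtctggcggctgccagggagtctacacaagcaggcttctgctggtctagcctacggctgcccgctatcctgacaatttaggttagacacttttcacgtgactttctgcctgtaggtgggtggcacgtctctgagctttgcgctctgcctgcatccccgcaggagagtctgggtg
Emilin2, chr17:71311012-71311261, - strand: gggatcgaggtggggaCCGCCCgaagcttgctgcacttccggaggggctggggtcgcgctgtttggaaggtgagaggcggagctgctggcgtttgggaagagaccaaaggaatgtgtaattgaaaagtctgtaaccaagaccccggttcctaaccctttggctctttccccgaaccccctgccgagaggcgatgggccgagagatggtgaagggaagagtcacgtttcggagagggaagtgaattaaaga
The Fbln1 window ended at the base before the annotated gene and had 46.4% G and C, and the Emilin2 window lay between exons within its gene and had 57.6%. Each gene had a second window with exon bases, and there the order was the other way, with 62.4% and a GC box for Fbln1 and 48.4% and no GC box for Emilin2, so no contrast between the genes is read from these letters. The median over all 32851 windows was 52.4%. A GC box was found in 6 of the 9 windows, of which the 2 of Fbln1 share 191 bases, and in 32.7% of all windows. CCAAT, searched on both strands, was found in 1 of the 9 windows, an Fbln5 window, and in 33.8% of all. The letters TATAAA (12.4% of all windows), TGANTCA (6.75%) and GTCTAGAC (0.167%) were found in none of the 9. None of these motifs contains another, and a match is a description of the letters only.

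The values are unique molecular identifiers (UMIs), each standing for a captured RNA molecule, summed over the cells of a class and given as counts per 1000000 UMIs of that class (CPM). Cells with 1001 to 6999 genes and a mitochondrial share under 8% numbered 3524 of 5566 Tom+ barcodes and 6717 of 11838 Tom- barcodes. Mesothelial cells, the lining layer of the fat pad, were those with at least 10 UMIs of Msln, Upk3b, Krt19, Lrrn4 and Upk1b (250 Tom+ and 1887 Tom-), and stromal cells were those with under 5 (3263 and 4800), which left 11 and 30 cells between. Stromal cells held 51104409 and 57883866 UMIs and mesothelial cells 5322983 and 32355904. The summed level of 11 mesothelial markers, 5 of them from the rule, was 7020 and 7117 CPM in mesothelial cells against 182 and 305 CPM in stromal cells. The highest single marker gave 170 and 263 CPM of the stromal sums, and in Tom+ cells it was Wt1. The rule for stromal cells also admitted immunoglobulin-rich and mast cells, and 7 immune markers summed to 206 CPM in Tom+ and 138 CPM in Tom- stromal cells, so levels without them are given where they matter. tdTomato RNA measured 211 CPM in Tom+ against 13.1 CPM in Tom- stromal cells, and 780 and 8.25 CPM in mesothelial cells. Of the 10772 tdTomato UMIs of Tom+ stromal cells, 1784 came from 81 cells with immune markers and no Pdgfra UMI. In these 81 cells tdTomato was at 745 CPM. Cdkn2a, the gene of p16 and p19Arf, did not follow the sort in stromal cells. It was lower in Tom+ there, with 4.66 and 5.79 CPM, a log2 ratio of -0.31 (-0.56 to -0.069). In mesothelial cells it was higher in Tom+, with 12.4 and 8.47 CPM, a log2 ratio of 0.55 (0.14 to 0.94). By qPCR on sorted progenitors of old mice, the study reported more p16 RNA in Tom+ than in Tom- cells. The same barcode appeared in both libraries 2224 times (40% of Tom+ and 18.8% of Tom- barcodes). Of these, 9 passed the filter in both libraries and 772 in 1 only, and in the 772 the poorer library held a median of 2.29% of the UMIs of the richer. Library ratios are therefore also given without all shared barcodes. This step also removes deep cells. The 506 Tom+ and 284 Tom- shared barcodes that passed had median depths of 27827.5 and 32751.5 UMIs. Over all cells that passed, these were 14392.5 and 11910 UMIs.

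In stromal cells the elastic fibre genes did not move in 1 direction between the libraries. Eln and Lox were higher in the Tom+ library, Fbln1, Mfap4 and Ltbp2 were lower, and the other 5 differed by less than 0.35 on the log2 scale. That size is the larger of those the study applied to its single-cell gene calls. The study took it on average log fold changes, not on ratios of summed CPM. Thus 2 of 10 were past that size upward and 3 of 10 downward, while over the 9778 genes tested, those averaging 5 CPM or more, the shares were 14.8% upward and 8.16% downward, 22.9% in all. At a smaller size of 0.1, added after the data were seen, 4 of 10 were past it upward and 4 downward, beside 45.8% and 26.1% of all genes, 71.9% in all. The 10 genes together made up 4131 CPM (4113 to 4149) of Tom+ and 4095 CPM (4078 to 4111) of Tom- stromal UMIs. Their median log2 ratio was -0.083, beside a median of 0.071 over all genes tested. Over all stromal cells the makeup of the sum differed more than its size, with more Eln and less Fbln1 RNA in the Tom+ library. These sums include cluster 4, of immunoglobulin-rich cells described below, which made up 5.55% of Tom+ and 1.90% of Tom- stromal cells. Without this cluster and the mast cells of cluster 5, each of the 10 ratios was higher, with 0.87 for Eln and -0.89 for Fbln1. The near equality of the sums therefore holds only with these cells included.

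Eln (ENSMUSG00000029675, chr5:134702593-134747323, - strand) encodes tropoelastin, the soluble unit of the elastic core. It measured 588 CPM (581 to 594) in Tom+ against 348 CPM in Tom- stromal cells, or 0.75 (0.73 to 0.78) as a log2 ratio. This ratio stood at percentile 98.2 of the genes tested and was 0.75 without shared barcodes. Eln RNA was held unevenly: with each cell thinned to 7563 UMIs, the 10% of cells with most Eln held 56.5% of its UMIs in Tom+ and 65.2% in Tom-. Most stromal cells nevertheless held some, since after thinning 72.9% (71.3 to 74.5) of Tom+ cells and 55.2% (53.7 to 56.7) of Tom- cells had an Eln UMI. Unthinned shares were 82.1% and 63.9%, at median depths of 14235 and 11270 UMIs. Immune reference cells, which should lack these genes, gave thinned shares of 11.1% and 4.17% (72 and 24 cells kept, median depths before thinning 30006 and 12011 UMIs), well under the stromal shares.

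Lox encodes lysyl oxidase, the copper enzyme that starts the crosslinking of elastin and collagen. It measured 356 CPM (351 to 361) in Tom+ against 271 CPM in Tom- stromal cells. The log2 ratio was 0.39 (0.36 to 0.42), at percentile 88.3, and 0.51 without shared barcodes. Scaled by median-of-ratios size factors instead of the total, the ratio of Lox was 0.32, under the size counted here, and that of Eln was 0.68. A Lox UMI remained in 66.4% of Tom+ cells and 62.1% of Tom- cells after thinning (75.1% and 69.8% unthinned), against 2.78% and 16.7% of immune reference cells.

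Of the microfibril genes, Fbn1 was higher in Tom+ by close to the size counted here, Mfap5 and Emilin2 differed less, and Mfap4 and Ltbp2 were lower in Tom+. Fbn1 (ENSMUSG00000027204, chr2:125300594-125507993, - strand) encodes fibrillin-1, the backbone of the microfibril. It measured 857 CPM (848 to 865) in Tom+ against 679 CPM in Tom- stromal cells, or 0.34 (0.32 to 0.36) as a log2 ratio, just under the size counted here and 0.37, just over it, without shared barcodes. Without clusters 4 and 5, the immunoglobulin-rich and mast cells described below, it was 0.44. Mfap5 (ENSMUSG00000030116, chr6:122505845-122529290, + strand) encodes a small glycoprotein, MAGP-2, that binds fibrillin. Its levels were 735 CPM (727 to 742) and 842 CPM, or -0.20 (-0.22 to -0.18) as a log2 ratio and -0.092 without clusters 4 and 5. Emilin2 (ENSMUSG00000024053, chr17:71252172-71311978, - strand) encodes a glycoprotein of the interface between elastin and microfibrils. It was at 144 CPM (141 to 147) and 134 CPM, or 0.11 (0.061 to 0.15) as a log2 ratio and 0.21 without clusters 4 and 5. All 3 were broadly present, with thinned shares of 90.8% and 86.5% of cells for Fbn1, 88.8% and 90.6% for Mfap5 and 57.1% and 52.6% for Emilin2 in Tom+ and Tom-. Unthinned, these shares were 93.6% and 88.0%, 91.4% and 90.5%, and 70.6% and 60.7%. Immune reference shares, thinned, were 11.1% and 8.33% for Fbn1, 11.1% and 20.8% for Mfap5 and 9.72% and 16.7% for Emilin2.

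Mfap4 and Ltbp2 were lower in the Tom+ library and sat in few cells. Mfap4 (ENSMUSG00000042436, chr11:61485431-61488900, + strand) encodes a fibrinogen-related protein that binds elastin and fibrillin. It measured 80.2 CPM (77.8 to 82.7) in Tom+ against 148 CPM in Tom- stromal cells, or -0.88 (-0.94 to -0.83) as a log2 ratio at percentile 1.33. Thinned cells with an Mfap4 UMI made up 17.3% (15.9 to 18.7) and 19.8% (18.6 to 21.1), and the 10% of cells with most held 88.7% and 88.6% of its UMIs. Unthinned, 24.7% and 24.9% of cells held a UMI, and immune reference cells 5.56% and 4.17% after thinning, so the libraries differed more in Mfap4 RNA than in the share of cells that held any. Ltbp2 (ENSMUSG00000002020, chr12:84783212-84876532, - strand) encodes a member of the latent TGF-β binding protein family that associates with fibrillin. It measured 9.90 CPM (9.06 to 10.8) from 506 UMIs in Tom+ against 23.5 CPM from 1358 UMIs in Tom- stromal cells, or -1.24 (-1.39 to -1.10) as a log2 ratio at percentile 0.460. After thinning, 4.18% (3.49 to 4.96) of Tom+ cells and 7.27% (6.50 to 8.10) of Tom- cells had an Ltbp2 UMI (6.25% and 9.42% unthinned), beside 0 of 72 immune reference cells in Tom+, which allows a share of up to 4.17% by 3 counts or 4.99% by the exact interval, and 4.17% (0.105 to 21.1) in Tom-. The Ltbp2 shares could therefore not be told apart from this background at this depth. The levels lay above those of the immune reference cells, 0.417 CPM (0.0106 to 2.33) for Tom+ and, for Tom-, 5.24 CPM (1.43 to 13.4). These cells were chosen for 0 Pdgfra UMIs, which leaves out immune cells with Pdgfra RNA. Cluster 4, of immunoglobulin-rich cells not chosen this way, had 4.81 CPM of Ltbp2 in Tom+ and 18.1 CPM in Tom-. Barcodes with 1000 genes or fewer had 58.7 and 48.8 CPM, above the stromal levels. The background of the Ltbp2 levels is therefore not settled by the immune reference. Without shared barcodes the ratios were -0.74 for Mfap4 and -1.22 for Ltbp2, and without clusters 4 and 5 they were -0.78 and -1.16.

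Of the fibulins, which bridge elastin, microfibrils and the cell, Fbln1 differed most between libraries. Fbln1 (ENSMUSG00000006369, chr15:85205949-85286535, + strand) encodes fibulin-1, found within the elastic core and in basement membranes. It measured 231 CPM (227 to 235) in Tom+ against 448 CPM in Tom- stromal cells, or -0.96 (-0.99 to -0.93) as a log2 ratio at percentile 1.11 and -0.81 without shared barcodes. After thinning, 55.5% of Tom+ cells and 67.7% of Tom- cells had a UMI (67.3% and 74.8% unthinned), against 11.1% and 26.8% of immune reference cells unthinned. Fbln2 (ENSMUSG00000064080, chr6:91212455-91272540, + strand), whose product binds fibrillin and fibronectin, was at 824 CPM (817 to 832) and 878 CPM, and Fbln5 (ENSMUSG00000021186, chr12:101746565-101819055, - strand), whose product is needed to build elastic fibres, was at 307 CPM (302 to 312) and 324 CPM. Their log2 ratios, -0.091 and -0.075, were -0.011 and 0.043 without shared barcodes, and -0.00090 and 0.029 without clusters 4 and 5. Thinned shares were 94.6% and 95.6% for Fbln2 and 72.1% and 76.2% for Fbln5, unthinned 95.6% and 95.8%, and 81.4% and 81.8%. Immune reference shares, thinned, were 12.5% and 20.8% for Fbln2 and 4.17% and 8.33% for Fbln5.

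**Figure D1:**
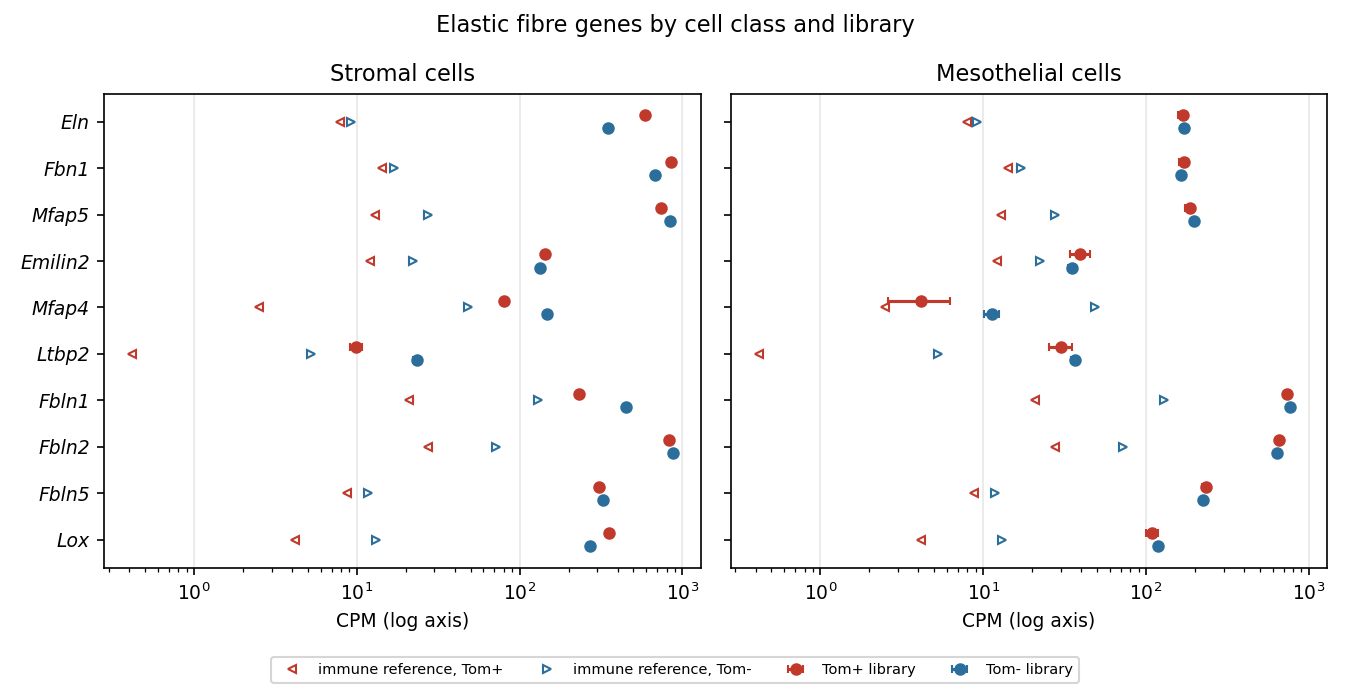
Level of each gene in CPM (log axis) in stromal cells (left) and mesothelial cells (right) of the Tom+ (red) and Tom- (blue) libraries, with exact Poisson 95% intervals for counting error; open triangles give the immune reference cells of each library. In stromal cells Eln is at 588 and 348 CPM and Fbln1 at 231 and 448 CPM, while in mesothelial cells the library symbols of Eln and Fbln1 nearly coincide.

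In mesothelial cells 9 of the 10 genes differed by less than 0.35 between the libraries. None was past it upward and Mfap4 was past it downward, where 7.34% and 4.27% of the 10014 genes tested were, 11.6% in all. Eln measured 168 CPM (157 to 179) in Tom+ against 172 CPM in Tom- mesothelial cells, Fbn1 170 and 164 CPM, and Lox 109 (100 to 118) and 119 CPM. Fbln1 was at 731 CPM (709 to 755) and 764 CPM, or -0.062 (-0.11 to -0.014) as a log2 ratio where stromal cells gave -0.96. Ltbp2 was at 29.9 CPM (25.4 to 34.9) and 36.6 CPM, or -0.29 (-0.54 to -0.053) as a log2 ratio. The other levels were 655 and 639 CPM for Fbln2, 234 and 225 CPM for Fbln5, 186 and 196 CPM for Mfap5, and 39.3 and 35.3 CPM for Emilin2. Mfap4 was at 4.13 CPM from 22 UMIs and 11.3 CPM from 366 UMIs, found in 6.40% and 7.47% of cells unthinned (1.21% and 3.69% thinned), where the immune reference cells gave 7.41% and 9.76% unthinned. These shares are at the background, so the Mfap4 ratio in mesothelial cells is not read as a difference in expression. The sum of the 10 genes was 2326 CPM (2285 to 2367) and 2362 CPM, and their median log2 ratio was -0.050, with 0.032 over all genes tested. Without shared barcodes Eln was at a log2 ratio of -0.32 and Fbln1 at 0.13, and the counts past 0.35 remained 0 upward and 1 downward. The 250 Tom+ mesothelial cells set the width of these intervals.

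Between the cell classes, the core, the crosslinker and most microfibril genes were lower in mesothelial than in stromal cells, while Fbln1 and Ltbp2 were higher in both libraries. Lower by more than 1 on the log2 scale in each library were Eln, Fbn1, Mfap4, Mfap5, Emilin2 and Lox, 6 of 10 where 9.22% of 10019 genes in the Tom- library and 10.1% of 10240 genes in the Tom+ library were. Past 1 upward were 0 of 10 in the Tom- library (11.9% of all genes) and 2 of 10 in the Tom+ library (13.1%), so that 21.1% and 23.2% of all genes were past it either way. In the Tom- library the log2 ratio of Fbn1 was -2.05 (-2.09 to -2.01). Those of Mfap5, Emilin2, Lox, Eln and Mfap4 were -2.10, -1.92, -1.19, -1.02 and -3.71, the last with a mesothelial share of cells at the background. In the Tom+ library the ratios of the same genes in the same order were -2.33, -1.98, -1.87, -1.71, -1.81 and -4.28. Fbln1 was at 0.77 (0.74 to 0.79) in Tom- and 1.66 (1.61 to 1.72) in Tom+, and Ltbp2 at 0.64 (0.53 to 0.75) and 1.59 (1.33 to 1.85). The difference between the libraries in these last values lay in the stromal levels, since the mesothelial levels were close. Fbln2 and Fbln5 were within 1 in both libraries, at -0.46 and -0.52 in Tom- and -0.33 and -0.40 in Tom+. The median over the members was -1.10 and -1.76, with 0.14 and 0.11 over all genes. After thinning, Fbln1 was detected in 94.1% (92.9 to 95.2) of 1788 Tom- mesothelial cells and 95.1% (91.7 to 97.5) of 247 Tom+ ones, at median depths of 14753 and 18601.5 UMIs before thinning. Unthinned, the shares were 97.6% and 99.6%. For Ltbp2 they were 14.4% and 10.5% thinned and 20.8% and 19.6% unthinned. Without shared barcodes the counts past 1 were again 0 and 6 in the Tom- library and 2 and 6 in the Tom+ library.

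**Figure D2:**
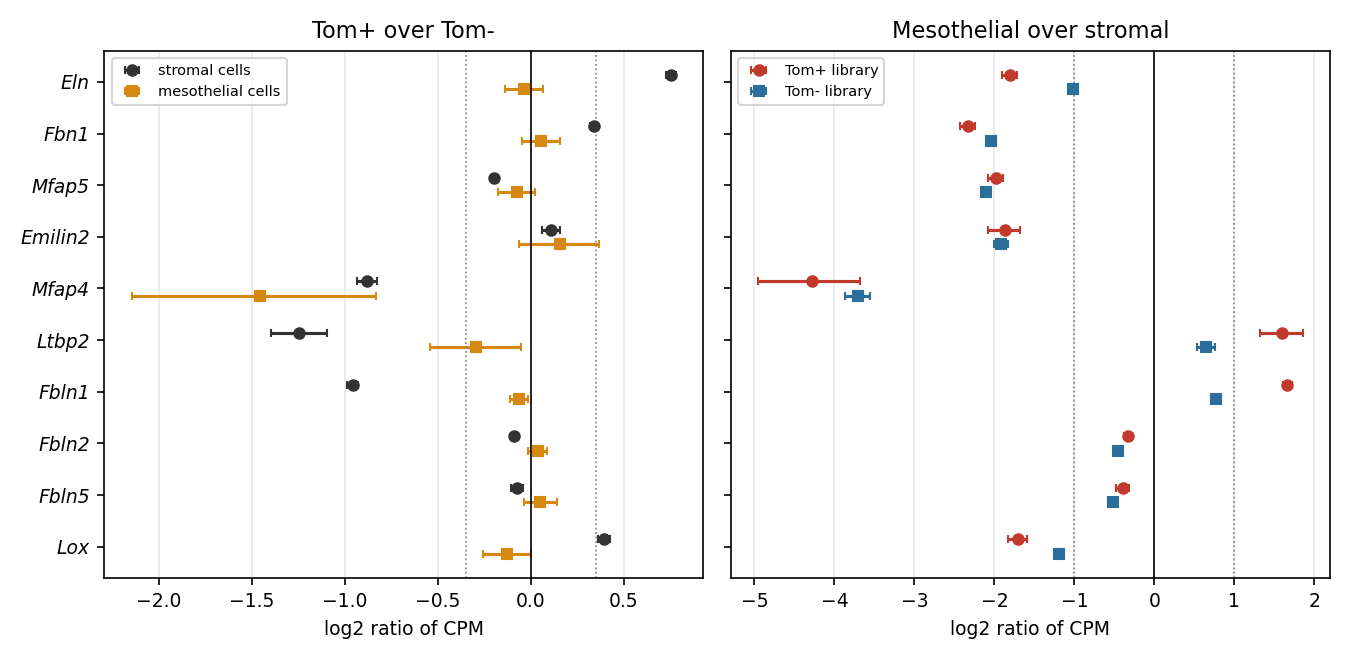
Log2 ratios of CPM with exact 95% intervals for counting error, Tom+ over Tom- in stromal (black circles) and mesothelial cells (orange squares) on the left, and mesothelial over stromal cells in the Tom+ (red circles) and Tom- library (blue squares) on the right; dotted lines mark 0.35 and 1. Eln (0.75) and Fbln1 (-0.96) lie far from 0 in stromal cells and near it in mesothelial cells, and Ltbp2 and Fbln1 are the genes to the right of 0 in the right panel.

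Stromal cells of both libraries were clustered together without the genes described here, and 12 clusters were numbered by their share of Tom+ cells. Clusters with at least 50 cells of a library gave 19 levels per gene. The genes marked different clusters. Cluster 6, led by Krtdap, Efhd1, Sema3c and Pi16, held the highest Fbn1, with 1906 CPM in Tom- and 1892 CPM in Tom+, the highest Mfap5, with 1957 and 1556 CPM, and the highest Emilin2, with 378 and 366 CPM. Summed over Dpp4, Pi16, Cd55, Sema3c and Ly6c1, markers of interstitial progenitors, this cluster was at 3685 CPM, against 1688 CPM in cluster 7, of 17 cells, and 1053 CPM in cluster 11. Eln had its highest level in cluster 3, led by Pi15, Ptgds, Pdlim3 and Myh11, with 2924 CPM in Tom- and 2180 CPM in Tom+, against a median of 352 CPM over the 19 levels. Lox followed it there, with 856 and 644 CPM, and was also high in cluster 2, led by Cfd, Cd36 and Aspn, with 683 CPM in Tom+ and 511 CPM in Tom-.

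Fbln1 and Ltbp2 were highest in clusters 11 and 12, those with the lowest shares of Tom+ cells, and Mfap4 was highest in cluster 11. Next for Mfap4 came cluster 3, with 270 CPM in Tom+ and 142 CPM in Tom- cells, while the Tom- cells of cluster 12 were at 71.9 CPM. Cluster 11, led by Cpxm2, Il6, Il33 and Mgp, was at 1120 CPM of Fbln1 in Tom- and 864 CPM in Tom+, and at 571 and 537 CPM of Mfap4, whose median over the 19 levels was 33.6 CPM. In cluster 11, Ltbp2 stood at 46.0 CPM in Tom- cells and at 44.2 CPM in Tom+ cells. It reached 275 CPM (253 to 297) in the 213 Tom- cells of cluster 12, led by Calca, Ncam1 and Serpinb2, and the median over the 19 levels was 4.58 CPM. Cluster 12 was also at 617 CPM summed over the mesothelial markers and 657 CPM over the mural markers. These sums were not split by gene, and Acta2, a mural marker, was among the leading genes of the cluster. The part of mesothelial and mural cells in its Ltbp2 level was not tested. Clusters 11 and 12 made up 22.3% (1072 cells) and 4.44% of Tom- stromal cells but 7.29% (238 cells) and 1.04% of Tom+ stromal cells. Together they supplied most of the Ltbp2 UMIs of the Tom- library, 41.8% and 45.0%, and cluster 11 alone 82.3% of its Mfap4 and 53.2% of its Fbln1. Fbln2 was the most even gene, highest in cluster 2 (1325 CPM in Tom+), and Fbln5 was highest in the Tom- cells of clusters 2 and 3 (731 and 671 CPM). Cluster 4, of immunoglobulin-rich cells, gave the lowest level of 7 of the 10 genes.

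**Figure D3:**
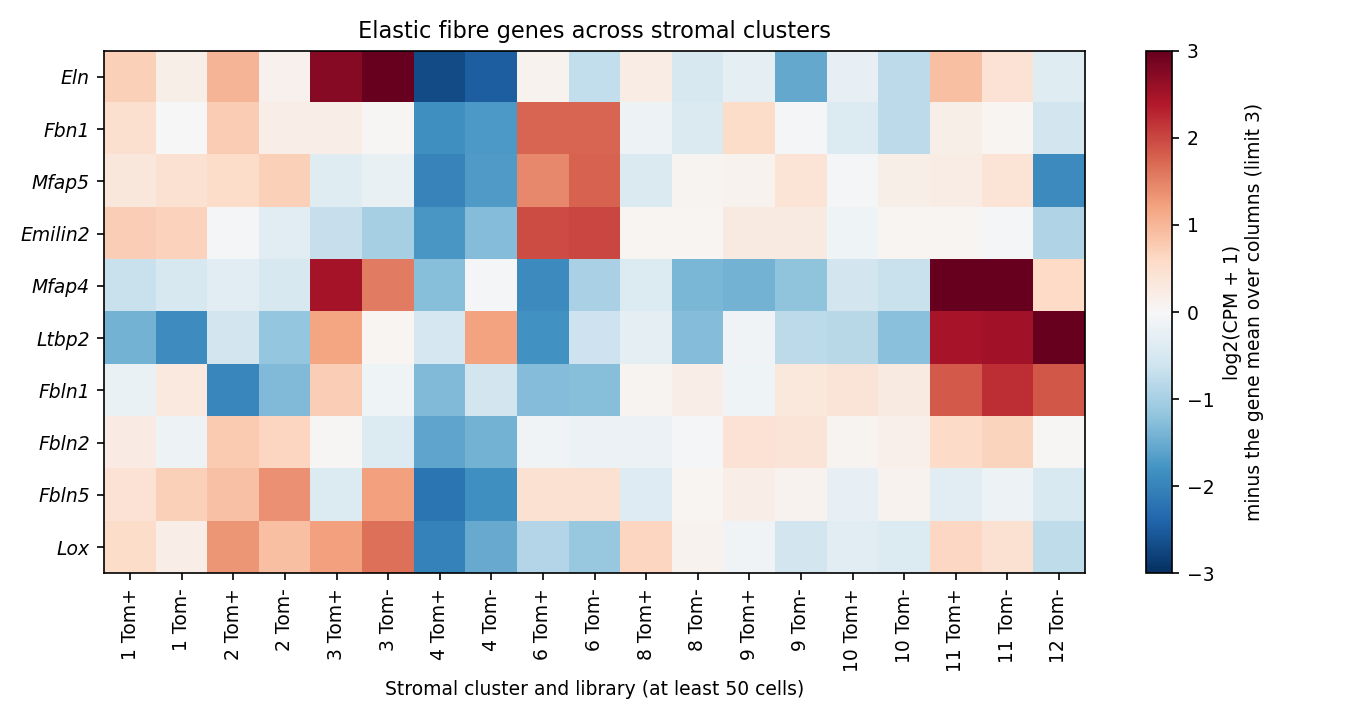
Level of each gene (rows) in each stromal cluster and library with at least 50 cells (columns), as log2(CPM + 1) minus the mean of the gene over the columns, from blue (lower) to red (higher), with colours limited at 3. Eln stands out in cluster 3, Fbn1, Mfap5 and Emilin2 in cluster 6, Mfap4 and Fbln1 in cluster 11, and Ltbp2 in clusters 11 and 12.

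Across these 19 levels, as log2(CPM + 1), Eln went with Lox (Pearson r 0.88) and Mfap5 with Emilin2 (0.87) and Fbn1 (0.85), and Mfap4 with Ltbp2 (0.68) and Fbln1 (0.68). Without cluster 4 the values were 0.81, 0.80, 0.74, 0.69 and 0.67, while that of Fbln2 with Fbln5 went from 0.69 to 0.031. The lowest was Mfap5 with Ltbp2, at -0.51. The points share 2 libraries, and the clusters differ in depth, so these values describe the pattern only. Of 5744 other genes averaging 20 CPM or more, the most like Eln was Plbd2 (0.93), followed by Mfap2 (0.90), which encodes the microfibril protein MAGP-1, and Gpnmb (0.89). For Fbn1 they were Smurf1 (0.97) and Smurf2 (0.95), ubiquitin ligases of the TGF-β and BMP pathways, and Nhsl1 (0.95). For Fbln1 they were the complement genes C4b (0.88) and Cfb (0.85) and Nkain4 (0.85), and for Ltbp2 Pdzrn3 (0.92), Mpp6 (0.91) and Actn1 (0.90). Those of Lox were Pcdhb9 (0.90), the collagen gene Col1a2 (0.90) and Plbd2 (0.89), and those of Mfap5 were Pdlim2 (0.97), Fyn (0.96) and Qpct (0.96). Emilin2 was nearest to Dnm1, Megf9 and Axl (0.95 each), Mfap4 to Rpn2 (0.82), Ddost (0.79) and Cpxm2 (0.79), Fbln2 to Mfge8 (0.95), Mxra7 (0.93) and Mrc2 (0.92), and Fbln5 to Ppic (0.93), Gnas (0.93) and Wsb2 (0.93).

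Within clusters the library ratios took another form for several genes. In the 9 clusters with at least 50 cells of each library, Eln was higher in Tom+ in 7, from 0.47 in cluster 11 to 1.23 in cluster 9, but lower in cluster 3 at -0.42 (-0.47 to -0.38), the cluster with the most Eln. Fbn1 was higher in Tom+ in 7 clusters and at -0.010 (-0.041 to 0.021) in cluster 6. Lox was higher in 7 and lower in cluster 3, at -0.41. Mfap5 was lower in Tom+ in 9 of 9, from -0.51 to -0.10, with an interval below 0 in each. Fbln5 was lower in 7, with -1.67 (-1.78 to -1.55) in cluster 3, where it measured 211 CPM in Tom+ against 671 CPM in Tom- cells. Fbln1 was lower in 7, at -0.37 in cluster 11, but at 0.86 in cluster 3. Cluster 11 held 82.3% of the Mfap4 UMIs in Tom- and 38.2% in Tom+, and 41.8% and 25.5% of those of Ltbp2. There Mfap4 and Ltbp2 were close between the libraries, at -0.088 (-0.17 to -0.0091) and -0.057 (-0.34 to 0.22). In the other 8 clusters Ltbp2 rested on at most 93 UMIs in a library. Among these 9 clusters, those other than 3 and 11 had Mfap4 at 11.8 to 46.0 CPM. The immune reference gave 2.50 CPM of Mfap4 for Tom+ and 48.5 CPM for Tom-. In the latter, 1 cell held 30 of the 37 UMIs, so that level is no firm background.

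Equal weights for clusters, with which their sizes no longer count, gave ratios that depended on how finely the cells were clustered. With the 9 clusters above weighted equally (Leiden resolution 0.6), Eln had a log2 ratio of 0.12, Lox 0.14, Fbn1 0.25, Fbln1 -0.18, Mfap5 -0.26, Fbln5 -0.44, Mfap4 0.11 and Ltbp2 0.035. Past 0.35 were 0 members upward and 1 downward, beside 9.01% and 4.9% of all genes, 13.9% in all. Without cluster 4, Mfap4 was at 0.16 and Ltbp2 at 0.29. With 5 coarser clusters (resolution 0.3) Eln was at 0.81, Lox at 0.40, Fbln1 at -0.40, Ltbp2 at -0.40, Mfap4 at -0.14 and Fbln5 at -0.15. There 2 members were past 0.35 upward and 2 downward, beside 9.47% and 5.65% of all genes (15.1% in all), and the signs of Mfap4 and Ltbp2 were those of the sum over all cells. With 10 finer clusters (resolution 1.0) Eln was at 0.21, Lox at 0.17, Fbln1 at -0.13, Mfap4 at 0.34, Ltbp2 at 0.33 and Fbln5 at -0.35, with 0 members past the size either way, beside 9.85% of all genes upward and 3.47% downward, 13.3% in all. The equal-weight value is the ratio of mean CPM over clusters, so clusters with a high level count most. At resolution 0.6 that is cluster 3 for Eln. The median of the ratios within clusters lacks this weighting. For Eln it was 0.56 at resolution 0.6, 0.65 at 0.3 and 0.74 at 1.0, and for Lox 0.26, 0.22 and 0.25. At resolution 0.6 it was -0.37 for Fbln1 and -0.088 for Mfap4. The median for Eln thus stayed past 0.35 at each resolution. The 9 clusters leave out cluster 12, and summed without weights they gave -0.90 for Mfap4, -0.88 for Ltbp2 and 0.75 for Eln. The makeup of the stromal cells by cluster moved with the sort, and its part in the ratios cannot be told apart from the sort. Clusters found from cells that differ between libraries separate the libraries partly by construction.

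**Figure D4:**
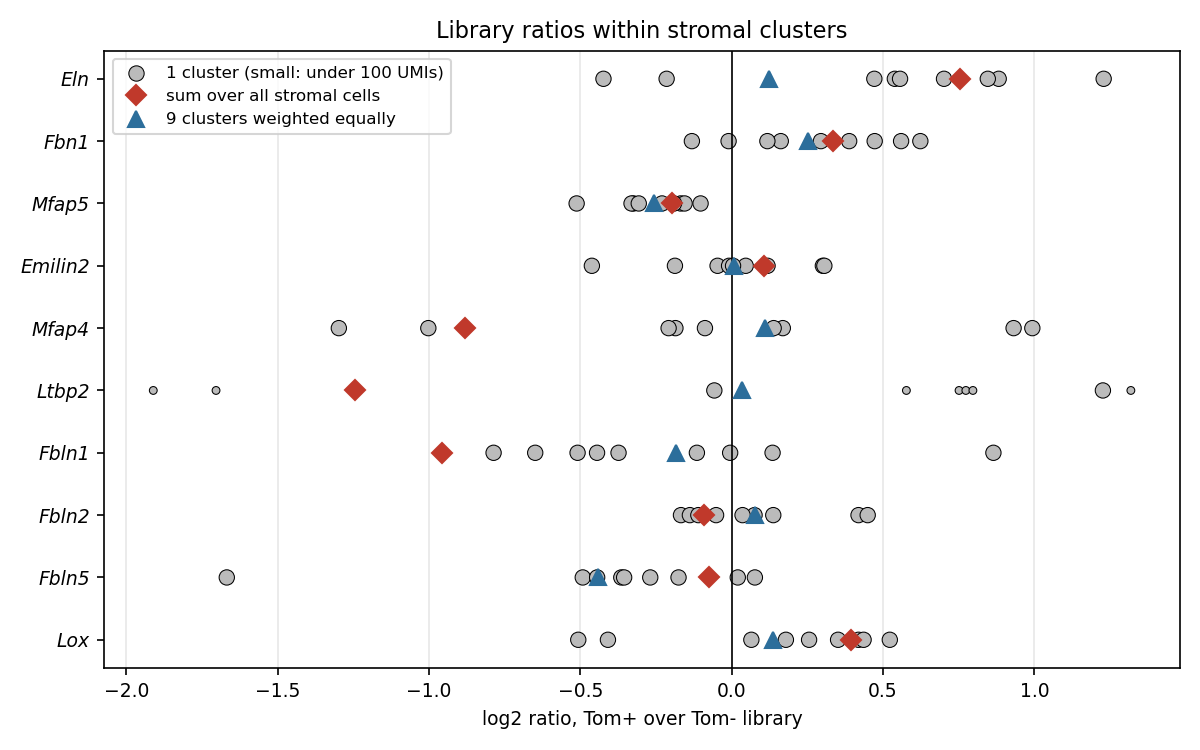
Log2 ratio of Tom+ over Tom- for each gene in each of 9 stromal clusters (grey circles, small where the cluster held under 100 UMIs of the gene), summed over all stromal cells (red diamonds) and with the 9 clusters weighted equally (blue triangles), at Leiden resolution 0.6. The diamonds of Mfap4 (-0.88) and Ltbp2 (-1.24) lie left of 0 and their triangles (0.11 and 0.035) just right of it, a change of sign that was absent at resolution 0.3, and all circles of Mfap5 lie left of 0.

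A tdTomato UMI was found in 28.6% of Tom+ and 13.1% of Tom- stromal cells (20.8% and 8.86% thinned), and none of these classes was known to be free of reporter RNA in the Tom+ library. Cells of the Tom+ library were therefore also compared by tdTomato RNA, a split chosen after the data were seen. Among stromal cells with a Pdgfra UMI and under 3 immune marker UMIs, 2187 held 0 tdTomato UMIs and 164 held at least 5, at median depths of 14130 and 12785 UMIs. The cells with at least 5 were lower in Eln, with 413 CPM (387 to 440) against 656 CPM, in Fbn1, with 711 CPM (677 to 747) against 976 CPM, in Lox, with 267 CPM (246 to 289) against 394 CPM, and in Emilin2, with 125 CPM (111 to 141) against 164 CPM. They were higher in Ltbp2, with 46.4 CPM (37.9 to 56.2) from 104 UMIs against 7.43 CPM, in Fbln1, with 362 CPM (337 to 387) against 235 CPM, and in Mfap4, with 134 CPM (119 to 150) against 79.7 CPM. At this limit of 5 UMIs, each of Eln, Lox, Fbln1, Mfap4 and Ltbp2 thus differed in the direction opposite to its ratio between the libraries. With a limit of 1 UMI this did not hold for Lox, as given below. The 723 cells at that limit include the 164. Cells with at least 1 but under 5 UMIs were not compared on their own, so the opposite direction is shown for the 164 cells only. The split and the comparison of libraries use the same Tom+ cells.

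The log2 ratios of this split were -0.67 (-0.76 to -0.57) for Eln, -0.46 for Fbn1, -0.56 for Lox, -0.39 for Emilin2, 0.62 for Fbln1, 0.75 for Mfap4 and 2.64 (2.30 to 2.98) for Ltbp2. Past 0.35 were 3 of 10 upward and 4 of 10 downward, where 9.45% and 16.7% of 9816 genes were, 26.2% in all. Mfap5 (-0.21), Fbln2 (-0.040) and Fbln5 (-0.068) were within it. The groups differed in makeup, since cluster 11 held 16.5% of the cells with at least 5 tdTomato UMIs and 6.86% of those with 0, and cluster 12 9.76% and 0.229%. Mesothelial markers summed to 297 and 185 CPM, of which the highest single marker gave 275 and 176 CPM. Mural markers summed to 159 and 80.3 CPM, of which the highest gave 111 and 44.6 CPM. The part of mesothelial and mural cells and of free RNA in the ratios was not tested. Within cluster 11 alone (27 and 150 cells), the ratios were -0.79 (-1.08 to -0.52) for Eln, -0.68 for Lox, -0.48 for Fbn1, 0.70 for Mfap4, 0.22 for Fbln1 and 0.81 (0.046 to 1.52) for Ltbp2. Clusters 8, 9 and 10 held 25, 20 and 26 cells with at least 5 tdTomato UMIs, and no ratio was taken within them. In the 723 cells with at least 1 tdTomato UMI, which include the 164 with at least 5, Eln was at 617 CPM and Lox at 398 CPM. In those with 0 they were at 656 and 394 CPM. In the Tom- library Eln was at 348 CPM in 3592 cells with 0 tdTomato UMIs and 418 CPM in 545 cells with at least 1. Fbln1 was at 450 and 404 CPM there, so both differed in the direction of their library ratios. Lox was at 281 and 282 CPM, Mfap4 at 142 and 150 CPM and Ltbp2 at 21.3 and 20.2 CPM.

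**Figure D5:**
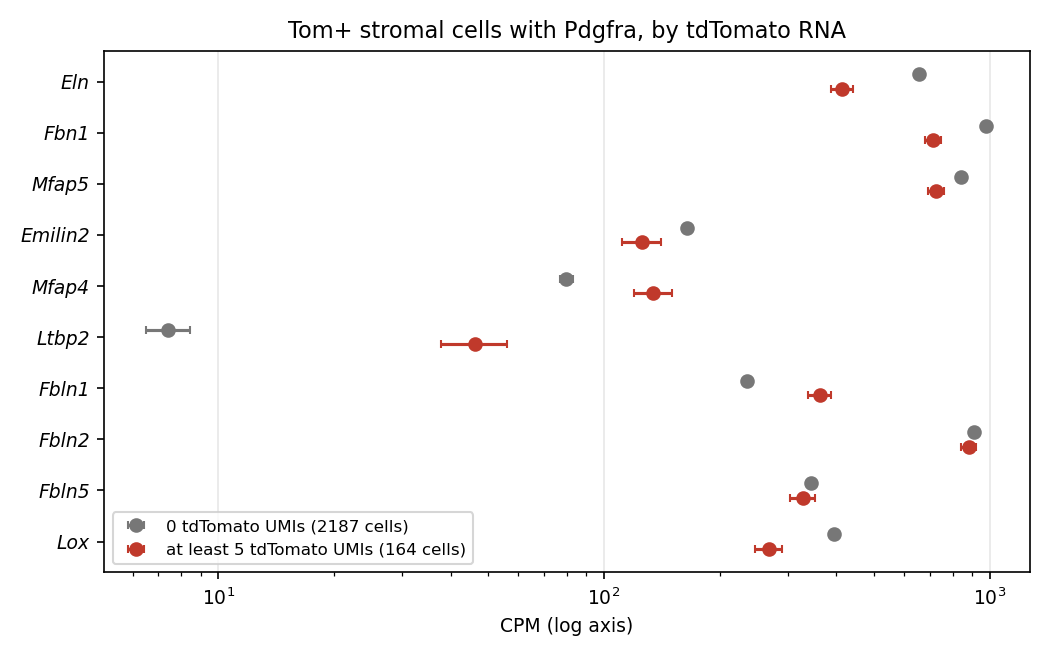
Level of each gene in CPM (log axis) in Tom+ stromal cells with a Pdgfra UMI that held 0 (grey, 2187 cells) or at least 5 (red, 164 cells) tdTomato UMIs, with exact Poisson 95% intervals for counting error. Ltbp2 is at 7.43 CPM in the grey and 46.4 CPM in the red group, while Eln is at 656 and 413 CPM.

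A list of 37 other genes related to elastic fibres also held proteoglycan, elastase, TGF-β and integrin genes. Of the 37, 29 averaged 5 CPM or more in stromal cells. Of these, 8 were past 0.35 upward in Tom+, 3 downward and 18 within, with a median of 0.094, beside 14.8% upward, 8.16% downward and a median of 0.071 over all genes tested. The 8 include Mmp12 and Ctss, which lay largely in immune cells. Mfap2, the MAGP-1 gene, measured 278 CPM in Tom+ against 154 CPM in Tom- cells, a log2 ratio of 0.86. Loxl2, a lysyl oxidase relative, was at 0.61, Fbln7 at 0.52, Hmcn1, a hemicentin, at 0.65, Fn1, the fibronectin on which fibrillin assembles, at 0.44, and Itgb3, an integrin subunit, at 0.71. Those lower in Tom+ were Efemp1, the fibulin-3 gene, with 444 against 698 CPM (-0.65), the proteoglycan gene Bgn at -0.49 and Ltbp4, which guides elastin onto microfibrils, at -0.42. The elastase genes were Mmp12 (9.55 and 0.743 CPM, 3.68) and Ctss (41.3 and 10.9 CPM, 1.93). Ctss was found in 92.6% of the 81 Tom+ immune reference cells, and Cd79a, a B cell marker, in 74.1% of them. Of the 488 Mmp12 UMIs of Tom+ stromal cells, 421 came from 1 immune reference cell. Without clusters 4 and 5, of immunoglobulin-rich and mast cells, Mmp12 was at 1.29 and 0.306 CPM and Ctss at 1.78 and 0.559 CPM. Of the 43 Mmp12 UMIs of Tom- stromal cells, 17 lay outside those clusters. In the same cells Mfap2 was at 0.97, Eln at 0.87, Lox at 0.51, Efemp1 at -0.56, Bgn at -0.41 and Ltbp4 at -0.32, the last within the size counted here. Loxl1 and Ltbp1, within that size over all stromal cells at 0.27 and 0.28, were past it upward there, at 0.38 each.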

How the data were processed

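Single-cell 3′ libraries (10x Genomics v3.1 chemistry) were made from sorted CD31- CD45- cells of gWAT, 1 of Tom+ and 1 of Tom- cells. Per the labels and the submitters' processing notes, the authors counted reads with Cell Ranger 3.0.2 on mm10, and deposited the counts of UMIs for each gene in each barcode, as whole numbers with no scaling. Groups were taken from the sort given in the labels. The cells kept had 1001 to 6999 genes and under 8% mitochondrial UMIs, and mesothelial and stromal cells were defined by the sum of 5 marker genes as given in the results. Counts were summed per library and class and scaled to counts per 1000000 (CPM). Ratios are log2 ratios of CPM, with conditional exact intervals (Clopper-Pearson) at 95%, and levels have exact Poisson intervals. These cover counting error only, and more deeply counted classes have narrower ones. No test was run, since each group was 1 library and cells are not replicates. Background shares were taken over genes averaging 5 CPM or more.

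For shares of cells with a UMI, each cell was thinned to 7563 UMIs, which left 2992 Tom+ and 4153 Tom- stromal cells and 247 and 1788 mesothelial cells. Immune reference cells had at least 10 UMIs of 7 immune markers, 0 of Pdgfra and under 5 mesothelial marker UMIs. Stromal cells were clustered (scanpy 1.11.5, igraph 0.11.9) from 2000 variable genes without the members and the list of other genes related to elastic fibres, with 30 principal components, 20 neighbours, Leiden resolution 0.6 and no correction between libraries. Gene coordinates are GENCODE annotations on GRCm38, and Lox was given none. Doublets were called per library with Scrublet (2 of 3524 Tom+ cells, 0.0568%, so the caller did not work in that library, and 122 of 6717 Tom- cells, 104 of them mesothelial) and were kept. On counts simulated with Poisson error for 9778 genes with 200 changed, the intervals of the stromal comparison held the true ratio for 95.5% of genes. The intervals assume this same error, so the share checks the calculation only. It says nothing of spread between cells, mice or preparations.

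All 10 members are named, of the other genes those past 0.35 in the stromal comparison, and for each member the 3 genes with the most like pattern. The members and the gene lists were chosen with earlier results of these data known. Alternatives tried were the scaling, the mitochondrial limit, cells weighted equally, the marker limits, the CPM floor, doublets left out, a Pdgfra requirement, equal weights for clusters and other resolutions. Leaving out shared barcodes, leaving out clusters 4 and 5, leaving cluster 4 out of the equal weights, equal weights at other resolutions, the 9 clusters summed, the smaller size of change and the split by tdTomato RNA were chosen after seeing the data.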

Additional observations from a re-analysis of the deposited data

Results flagged for a closer look

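Lox, the crosslinking enzyme gene, was higher in the Tom+ library in stromal cells, with a log2 ratio of 0.39 (0.36 to 0.42), and lower in mesothelial cells, with -0.13 (-0.26 to -0.00081). It is listed because the cell classes gave opposite signs with intervals that exclude 0 in each. The difference was not tested, since each class had 1 library a group, and the mesothelial interval ends close to 0.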

How the results depend on the processing

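The ratios of the libraries in stromal cells depended on the weights of the clusters and on the resolution of the clustering. With each of the 9 stromal clusters with at least 50 cells of each library weighted equally, 0 members were past 0.35 upward and 1 downward, the median member ratio was 0.057, and the ratios of Mfap4 (0.11) and Ltbp2 (0.035) changed sign. Without cluster 4 in these weights, the counts were 0 and 1, the median 0.11, and the ratios 0.16 and 0.29. At Leiden resolution 1.0, equal weights gave 0 and 0 members, a median of 0.14 and ratios of 0.34 and 0.33, but at resolution 0.3 they gave 2 and 2, a median of -0.071 and ratios of -0.14 and -0.40. The 9 clusters summed without weights gave 2 and 3, a median of -0.091 and ratios of -0.90 and -0.88. With median-of-ratios size factors 1 member was past 0.35 upward in stromal cells, and the median was -0.15. The median was -0.016 with cells weighted equally, -0.0019 in cells with a Pdgfra UMI and under 3 immune UMIs, 0.016 without shared barcodes and 0.014 without clusters 4 and 5. In mesothelial cells, 1 member (Emilin2, 0.35) was past the size upward without called doublets. For mesothelial over stromal cells in the Tom- library the median was -1.24 with size factors, -1.03 at a mitochondrial share under 5%, -1.20 with cells weighted equally, -1.17 without doublets and -1.26 without shared barcodes. In the Tom+ library it was -1.87, -1.62 and -1.90 for the first 3 of these, -1.90 with the Pdgfra requirement, -2.0 without shared barcodes and -1.92 without clusters 4 and 5. Members were higher in Tom+ in 50% of pairs of member and cluster, in 36% at Leiden resolution 0.3 and in 57% at 1.0. The share over all genes was not taken by cluster, and over all stromal cells 60.5% of the genes tested were higher in Tom+. Where a setting has no share over all genes beside it in this report, its counts only check the main ones and are not read as results about the members. The cause of these shifts was not tested beyond what each alternative changes. Apart from those of Mfap4 and Ltbp2 named here, a sign change of a member ratio was among ratios not past the size counted. No paired analysis was possible because each group was 1 library, and no replicate could be left out. Depth limits Ltbp2 in stromal cells (506 Tom+ UMIs) and Mfap4 in mesothelial cells (22 Tom+ UMIs).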

Other observations

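Barcodes with 1000 genes or fewer, left out of every comparison, also held RNA of the 10 genes, with a summed level of 2885 CPM (2804 to 2967) in 1892 Tom+ barcodes and 4247 CPM (4182 to 4313) in 4969 Tom- barcodes, at median depths of 644 and 682 UMIs. In the Tom+ barcodes Eln was at 259 CPM, Fbn1 at 440 CPM and Ltbp2 at 58.7 CPM from 98 UMIs, beside 588, 857 and 9.90 CPM in the stromal cells of that library. Most of these Tom+ barcodes were also barcodes of the Tom- library, since of 2224 shared ones 506 passed the filter in Tom+. tdTomato was at 241 CPM in the Tom+ and 212 CPM in the Tom- barcodes, where Tom- stromal cells had 13.1 CPM. The part of RNA from the other library in these levels was not tested. The 11 Tom+ and 30 Tom- cells between the mesothelial and stromal limits had sums of 3235 CPM (2775 to 3750) and 2529 CPM (2306 to 2767). The sum in immune reference cells was 111 CPM (98.5 to 126) for Tom+, and for Tom- it was 356 CPM (315 to 401).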
